A study of Mus musculus with 10 samples.

Results

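The circadian clock of gastrocnemius muscle was examined in desmin knock-out and wild-type mice through 10 genes, Arntl, Clock, Per1, Per2, Per3, Cry1, Cry2, Nr1d1, Nr1d2 and Dbp. These members were chosen as well-known clock genes, and all 10 of the 54232 genes in the table were found and passed the expression limit that left 14289 genes for testing. RNA was sequenced from the gastrocnemius, a calf muscle sampled with the adjacent plantaris, of 5 mice with the genotype Des -/- and 5 mice with the genotype Des wt/wt, at 3 months of age. Both genotypes shared 1 strain designation in the labels, that of the knock-out allele Destm1Cba, and the wild-type mice were littermate controls. All mice lived under 12 h of light and 12 h of darkness with free access to food and water, and no time of day at which a muscle was taken is given in the sources used here. The methods speak of RNA pooled from the muscles of a genotype, but the table gives every mouse its own column, so each mouse counted as 1 replicate. The knock-out was constitutive and whole muscle was used, so values come from muscle fibers and all other cells of the tissue.

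Levels are given as regularized log (rlog) values, a log2 measure of expression that corrects for library size and shrinks the values of a gene towards their mean. A log2 fold change of counts would be larger than a difference of rlog values, most of all for low genes, and the sequencing depth is unknown. Des itself, the gene of the intermediate filament protein desmin, lay between 11.76 and 11.89 in the knock-out mice and between 16.10 and 17.74 in the wild-type mice. Wild-type mouse 3 stood apart, with a mean correlation of 0.982 with the other wild-type mice where the others had 0.989 to 0.991, and the results that lean on it are given with and without it. Over all tested genes, limma called 7.7% higher and 5.99% lower in the knock-out mice at an adjusted p under 0.05, 13.7% in either direction. The knock-out values lay above all wild-type values for 7.45% of the genes and below all of them for 6.97%.

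The clock is a loop in which proteins switch off the genes that activate them. ARNTL (also called BMAL1) pairs with CLOCK or its relative NPAS2 and binds E-boxes at the genes for the PER and CRY proteins, which return to the nucleus and repress that pair. In a second loop the nuclear receptors REV-ERB alpha and beta, from Nr1d1 and Nr1d2, repress Arntl while the ROR receptors activate it, and the D-box factor DBP and its relatives pass the rhythm on to output genes. Skeletal muscle has its own clock, and in it the transcript of Arntl peaks at about the opposite time of day to those of Nr1d1 and Dbp.

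The DNA elements through which these proteins act were looked for in the promoter, taken as 250 bases before to 50 bases after each gene start in RefSeq on GRCm38.p6. Windows were found for 9 of the 10 members and for 18 of the 21 genes of the transcription factor loop. Some genes had several windows and counted if any of them held a match, whereas the shares are of single windows. The E-box CACGTG lay in 5 of these 18 genes and in 7.15% of all 32851 windows, and the variant CACGTT lay in 4 genes and in 4.68% of the windows. The D-box, searched as TTATGTAA or TTATGCAA, lay in 2 genes and 1.66% of the windows, and the core of the ROR and REV-ERB element, TAGGTCA, in 2 genes and 2.61% of the windows. Both strands were searched and no matches overlapped in the clock genes. The stretches that hold the matches of 4 members and of Ciart and Nfil3 are shown because they carry each kind of element, with the matched bases in capitals and each written 5′ to 3′ on the strand of its gene.
Per1, chr11:69098763-69098948, plus strand, E-box then D-box: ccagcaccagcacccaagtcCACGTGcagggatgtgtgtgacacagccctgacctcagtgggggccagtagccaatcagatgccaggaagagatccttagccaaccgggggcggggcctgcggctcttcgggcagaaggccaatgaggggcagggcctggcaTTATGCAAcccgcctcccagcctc
Per3, chr4:151044796-151044890, minus strand, a pair of D-boxes: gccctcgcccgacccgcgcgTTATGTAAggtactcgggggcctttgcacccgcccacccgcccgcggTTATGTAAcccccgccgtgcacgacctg
Cry1, chr10:85185089-85185153, minus strand, variant E-box on the other strand then E-box: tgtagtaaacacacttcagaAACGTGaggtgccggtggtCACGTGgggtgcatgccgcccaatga
Nr1d1, chr11:98775380-98775425, minus strand, variant E-box on the other strand: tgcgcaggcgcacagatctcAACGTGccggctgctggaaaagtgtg
Ciart, chr3:95882247-95882364, minus strand, 3 E-boxes: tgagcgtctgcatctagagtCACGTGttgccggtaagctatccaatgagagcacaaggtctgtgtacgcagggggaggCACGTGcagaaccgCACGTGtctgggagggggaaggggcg
Nfil3, chr13:52981040-52981071, minus strand, ROR core on the other strand: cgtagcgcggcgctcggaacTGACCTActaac
Counted from the base before the gene start as -1, the E-box of Per1 begins at -166 and its D-box at -24. The D-boxes of Per3 begin at -205 and -158, and the variant E-box of Nr1d1 begins at -28. No match lay in the windows of Clock, Nr1d2 and Dbp. A match is a description of letters and not a sign of binding.

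Of the 10 members, 1 was lower in the knock-out mice at an adjusted p under 0.05 with limma and none was higher, where 5.99% and 7.7% of all tested genes were called in those directions. That member was Nr1d1. The means of 6 members were higher and those of 4 lower in the knock-out mice, and the median difference was 0.10, against -0.0029 over all tested genes. By an exact permutation test of each member, without adjustment, 2 were lower and 1 was higher at a p under 0.05.

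**Figure D1:**
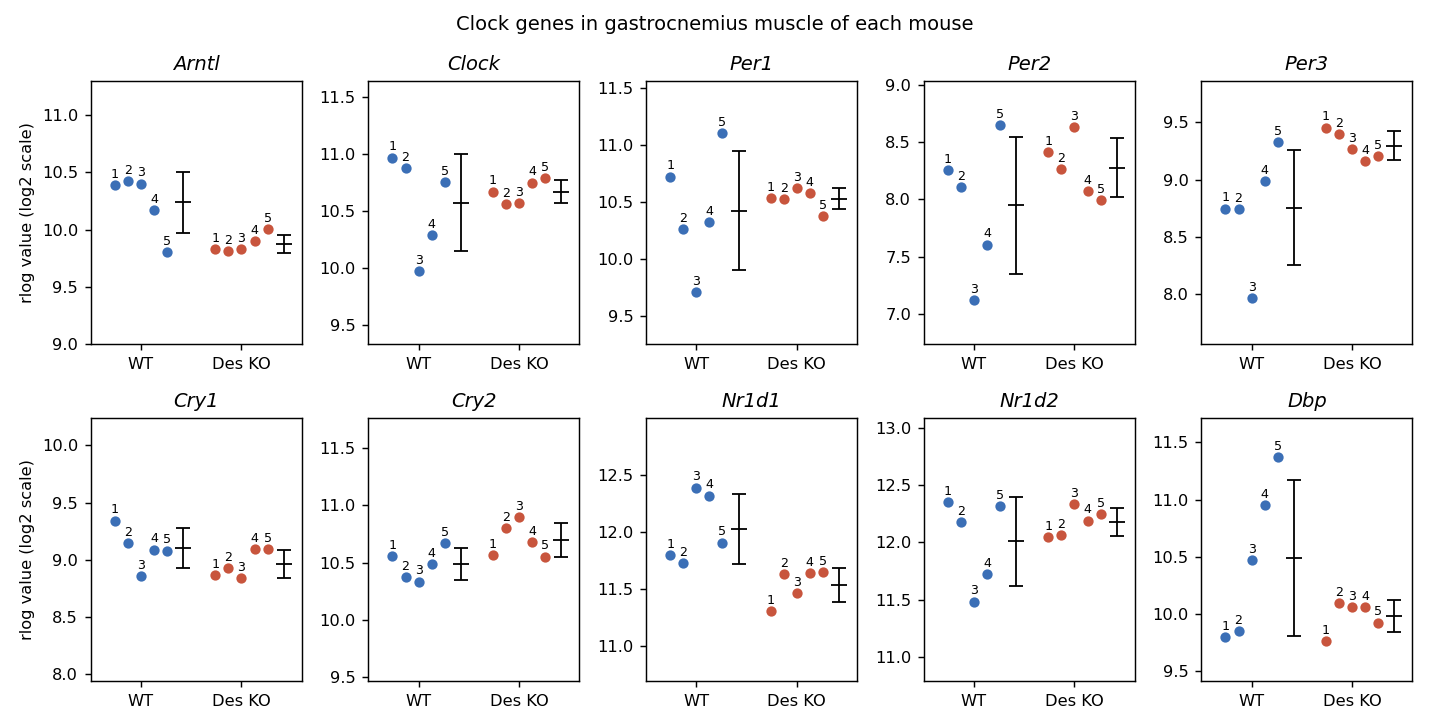
rlog level (log2 scale) of the 10 members in each of 5 wild-type and 5 desmin knock-out mice, with the mean and SD beside the points. The knock-out points lie below all wild-type points for Nr1d1 only, and for most members the wild-type points are spread over a wider range than the knock-out points.

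Among the activators, Arntl (ENSMUSG00000055116, chromosome 7, 113207465 to 113314126, GRCm38) had rlog levels of 10.39, 10.43, 10.40, 10.17 and 9.81 in wild-type mice 1 to 5 and of 9.83, 9.81, 9.83, 9.90 and 10.002 in knock-out mice 1 to 5. All 5 knock-out mice lay below the first 4 wild-type mice, and wild-type mouse 5 lay just below them. The difference was -0.36 (SE 0.12, adjusted p = 0.0602 with limma). Without wild-type mouse 5 it was -0.47 with an adjusted p of 0.00511 with limma. With all mice, Arntl was also called with quantile normalization (-0.35, adjusted p = 0.0456) and with sample weights, which count mice far from the fit for less (-0.39, adjusted p = 0.00356), and it was called under 3 of 19 alternatives in all.

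Clock (ENSMUSG00000029238, chromosome 5, 76209868 to 76304792), the usual partner of ARNTL, had levels of 10.97, 10.88, 9.98, 10.29 and 10.75 in the wild-type mice and of 10.67, 10.56, 10.57, 10.75 and 10.79 in the knock-out mice. The knock-out mice lay within the wild-type range, whose lower end was set by mouse 3. The difference was 0.09 (SE 0.17, adjusted p = 0.747 with limma) and turned to -0.05 without wild-type mouse 3. Npas2, the alternative partner and no member of the 10, had levels of 5.51, 5.36, 4.74, 5.56 and 5.28 in the wild-type mice against 6.07, 6.15, 6.01, 5.90 and 5.86 in the knock-out mice, without overlap. It rose by 0.71 (SE 0.15, adjusted p = 0.00692 with limma), which is 1.63-fold on the rlog scale, and by 0.57 without wild-type mouse 3. Arntl2, a relative of Arntl, differed by 0.15 (SE 0.22, adjusted p = 0.707 with limma).

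Each of the PER genes, whose proteins form the repressing complex with CRY, had a higher mean in the knock-out mice, and none passed the test. Per1 (ENSMUSG00000020893, chromosome 11, 69095217 to 69109960), which carries both an E-box and a D-box in the stretch shown, had levels of 10.72, 10.26, 9.71, 10.33 and 11.10 in the wild-type mice and of 10.53, 10.53, 10.62, 10.58 and 10.38 in the knock-out mice. The wild-type mice lay on both sides of a narrow knock-out range. The difference was 0.10 (SE 0.20, adjusted p = 0.771 with limma) and -0.08 without wild-type mouse 3.

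Per2 (ENSMUSG00000055866, chromosome 1, 91415982 to 91459324) had levels of 8.26, 8.11, 7.12, 7.60 and 8.65 in the wild-type mice and of 8.42, 8.26, 8.63, 8.08 and 7.996 in the knock-out mice. The lowest and the highest value both belonged to wild-type mice. The difference was 0.33 (SE 0.24, adjusted p = 0.4 with limma) and 0.12 without wild-type mouse 3.

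Per3 (ENSMUSG00000028957, chromosome 4, 151003652 to 151044665), the gene with a pair of D-boxes, had levels of 8.75, 8.74, 7.97, 8.99 and 9.33 in the wild-type mice and of 9.46, 9.40, 9.27, 9.16 and 9.21 in the knock-out mice. Of the 5 knock-out mice 2 lay above all wild-type mice, and only wild-type mouse 5 reached the knock-out range. The difference was 0.54 (SE 0.19, adjusted p = 0.0835 with limma), and 0.35 without wild-type mouse 3. Without wild-type mouse 5 the difference was 0.69 with an adjusted p of 0.022 with limma.

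The cryptochrome genes had the smallest SDs of the members among the wild-type mice, but not among the knock-out mice, where that of Cry2 was 0.150 and that of Arntl 0.0785. Cry1 (ENSMUSG00000020038, chromosome 10, 85131700 to 85185064) had levels of 9.34, 9.14, 8.86, 9.09 and 9.08 in the wild-type mice and of 8.86, 8.93, 8.84, 9.09 and 9.10 in the knock-out mice. The groups overlapped over most of their range, with a difference of -0.14 (SE 0.10, adjusted p = 0.421 with limma). Cry2 (ENSMUSG00000068742, chromosome 2, 92403646 to 92434043) had levels of 10.56, 10.37, 10.33, 10.49 and 10.67 in the wild-type mice and of 10.57, 10.80, 10.90, 10.68 and 10.55 in the knock-out mice, of which 3 lay above all wild-type mice. Its difference was 0.21 (SE 0.0995, adjusted p = 0.181 with limma).

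Among the nuclear receptors of the second loop, Nr1d1 fell and Nr1d2 did not pass the test. Nr1d1 (ENSMUSG00000020889, chromosome 11, 98767932 to 98775333), the gene of REV-ERB alpha, had levels of 11.80, 11.72, 12.38, 12.32 and 11.90 in the wild-type mice and of 11.31, 11.63, 11.47, 11.64 and 11.65 in the knock-out mice, without overlap. The gap between the highest knock-out and the lowest wild-type mouse was narrow. Nr1d1 fell by 0.49 (SE 0.14, adjusted p = 0.0299 with limma), a 1.40-fold lower level on the rlog scale, and the exact permutation test gave p = 0.00794, the smallest that 252 regroupings allow.

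The call of Nr1d1 held under 12 of 19 alternative settings, with differences from -0.56 to -0.23. Leaving out knock-out mouse 1, 2, 3 or 4 gave adjusted p-values of 0.0822, 0.0542, 0.0713 and 0.0509 with limma, leaving out wild-type mouse 4 gave 0.0677, and without wild-type mouse 3 the difference was -0.40 (adjusted p = 0.0304). Exons of Nr1d1 and of Thra, a thyroid hormone receptor gene on the opposite strand, share 263 bases, 8.55% of the exon bases of Nr1d1. Thra lay between 10.30 and 10.59 in the knock-out mice and between 10.63 and 11.33 in the wild-type mice (difference -0.39, SE 0.12, adjusted p = 0.0539 with limma). The strand setting of the counting is not given in the sources used here, so the part of shared reads in the difference was not tested.

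Nr1d2 (ENSMUSG00000021775, chromosome 14, 18204054 to 18239127), the gene of REV-ERB beta, had levels of 12.36, 12.18, 11.48, 11.72 and 12.32 in the wild-type mice and of 12.04, 12.07, 12.33, 12.19 and 12.25 in the knock-out mice. All knock-out mice lay inside the wild-type range, and the difference was 0.17 (SE 0.16, adjusted p = 0.526 with limma). Without wild-type mouse 3 it was 0.035 (adjusted p = 0.884 with limma). With sample weights and with a Y-linked covariate (the average level of 4 Y-linked genes in each mouse) it turned to -0.026 and -0.048. Every mouse expressed these Y-linked genes. Their average was 9.52 in wild-type mouse 3, 9.88 in wild-type mouse 4 and 10.22 to 10.62 in the other mice. The covariate thus mainly set those wild-type mice apart. Of the receptors that activate Arntl, Rora did not pass the test, at a difference of -0.13 (SE 0.23, adjusted p = 0.747 with limma), and Rorb lay under the expression limit. Rora depended on wild-type mouse 3, without which it differed by -0.38 (adjusted p = 0.0749 with limma). It was called with sample weights (-0.49, adjusted p = 0.00131) and with the Y-linked covariate (-0.47, adjusted p = 0.0206).

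Dbp (ENSMUSG00000059824, chromosome 7, 45705088 to 45710203) had levels of 9.80, 9.85, 10.47, 10.95 and 11.37 in the wild-type mice and of 9.76, 10.09, 10.06, 10.06 and 9.93 in the knock-out mice. The knock-out mice lay at the low end, beside wild-type mice 1 and 2. The difference of -0.51 (SE 0.25, adjusted p = 0.211 with limma) came with the largest SE of all members. Sample weights gave -0.15, and leaving out wild-type mouse 5 or 1 gave -0.29 and -0.68. Dbp was called under none of 19 alternatives, with adjusted p-values from 0.0745 to 0.602 with limma. Dbp shares 539 exon bases, 18.0% of its own, with Sphk2 on the opposite strand, whose difference was -0.34 (SE 0.14, adjusted p = 0.147 with limma).

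Dbp, its relatives Tef and Hlf, whose products bind the same D-box, and Nfil3, whose product competes with them for it, had lower means in the knock-out mice in all 4 cases, with a median difference of -0.53. Hlf had levels of 8.67, 8.23, 8.53, 8.32 and 9.04 in the wild-type mice and of 7.59, 7.67, 8.21, 7.74 and 7.87 in the knock-out mice, without overlap. It fell by 0.74 (SE 0.16, adjusted p = 0.00738 with limma), which is 1.67-fold, and was called under all 19 alternatives. Tef differed by -0.16 (SE 0.11, adjusted p = 0.377 with limma).

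Nfil3 had levels of 11.62, 11.46, 11.10, 10.90 and 10.44 in the wild-type mice and of 10.71, 10.43, 10.51, 10.63 and 10.50 in the knock-out mice. Its difference was -0.55 (SE 0.18, adjusted p = 0.0615 with limma), and without wild-type mouse 5, the lowest of its group, the adjusted p was 0.00501. The order of the wild-type mice by Nfil3 was the reverse of their order by Dbp, given as a description over 5 mice.

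Of the other repressors of the first loop, Bhlhe40, whose product DEC1 competes for E-boxes, had levels of 11.63, 11.64, 11.59, 11.49 and 11.76 in the wild-type mice and of 11.31, 11.40, 11.45, 11.05 and 11.06 in the knock-out mice. It fell by 0.36 (SE 0.10, adjusted p = 0.0285 with limma), without overlap, but was called under only 9 of 19 alternatives and lost the call without any 1 of knock-out mice 1, 4 and 5 or wild-type mice 1, 2 and 5, with adjusted p-values up to 0.0876. Bhlhe41 differed by -0.13 (SE 0.14, adjusted p = 0.605) and Ciart, the gene with 3 E-boxes, by -0.30 (SE 0.28, adjusted p = 0.514) with limma. Over the whole loop of 21 genes, 20 were tested, 1 was higher and 3 were lower, with a median difference of -0.14. Of all tested genes, 7.7% were called higher and 5.99% lower, with a median difference of -0.0029.

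**Figure D2:**
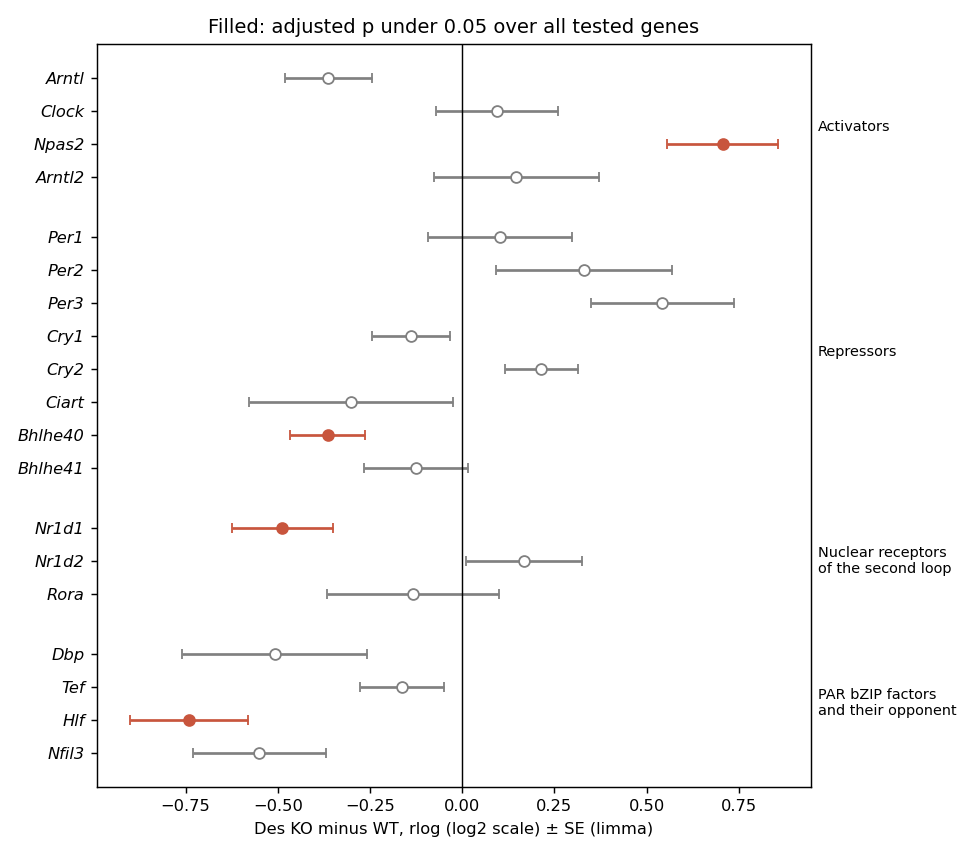
Difference in rlog level (knock-out minus wild-type mean, log2 scale) with its SE for tested genes of the clock loop, grouped by role, with filled points at an adjusted p under 0.05 with limma. Npas2 lies to the right at 0.71 and Hlf to the left at -0.74, and the 4 PAR bZIP factors and their opponent all lie to the left of 0.

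Genes that peak at opposite times of day were set against each other, since the sources give no sampling times. Of the activators, Arntl differed by -0.36, Clock by 0.09 and Npas2 by 0.71. Of the genes set against them, Nr1d1 differed by -0.49, Nr1d2 by 0.17, Dbp by -0.51 and Per3 by 0.54. The signs were mixed on each side, those of Clock and Nr1d2 varied with the settings as given above, and only Npas2 and Nr1d1 were called.

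The mean level of Arntl, Clock and Npas2 minus that of Nr1d1, Nr1d2, Dbp and Per3 was computed for each mouse, only to compare mice. It was -1.72, -1.74, -2.20, -2.32 and -2.62 in the wild-type mice and -1.79, -1.95, -1.98, -1.91 and -1.88 in the knock-out mice. The means were -2.12 ± 0.39 and -1.90 ± 0.0761 (SD, n = 5 each), a difference of 0.22, or 0.20 without wild-type mouse 3. Leaving out each mouse in turn gave 0.0937 to 0.318 for this score. With members only, that is without Npas2, the difference with all mice turned to -0.062. The wild-type mice covered a range of 0.897 and the knock-out mice one of 0.194, inside that of the wild-type mice. No test was made of this score.

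In single genes, Arntl minus Dbp was 0.59, 0.57, -0.07, -0.79 and -1.56 in the wild-type mice and 0.07, -0.28, -0.23, -0.16 and 0.08 in the knock-out mice. Wild-type mice 1 and 2 had high Arntl (10.39 and 10.43) with low Dbp (9.80 and 9.85), and wild-type mouse 5 had low Arntl (9.81) with high Dbp (11.37). Wild-type mouse 3 had Arntl as high (10.40) with Dbp of 10.47, and wild-type mouse 4 had levels of 10.17 and 10.95. The knock-out mice were low in both, with Arntl between 9.81 and 10.002 and Dbp between 9.76 and 10.09, a combination that no wild-type mouse had. Without times of sampling, the time of day and differences between mice or genotypes cannot be told apart.

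**Figure D3:**
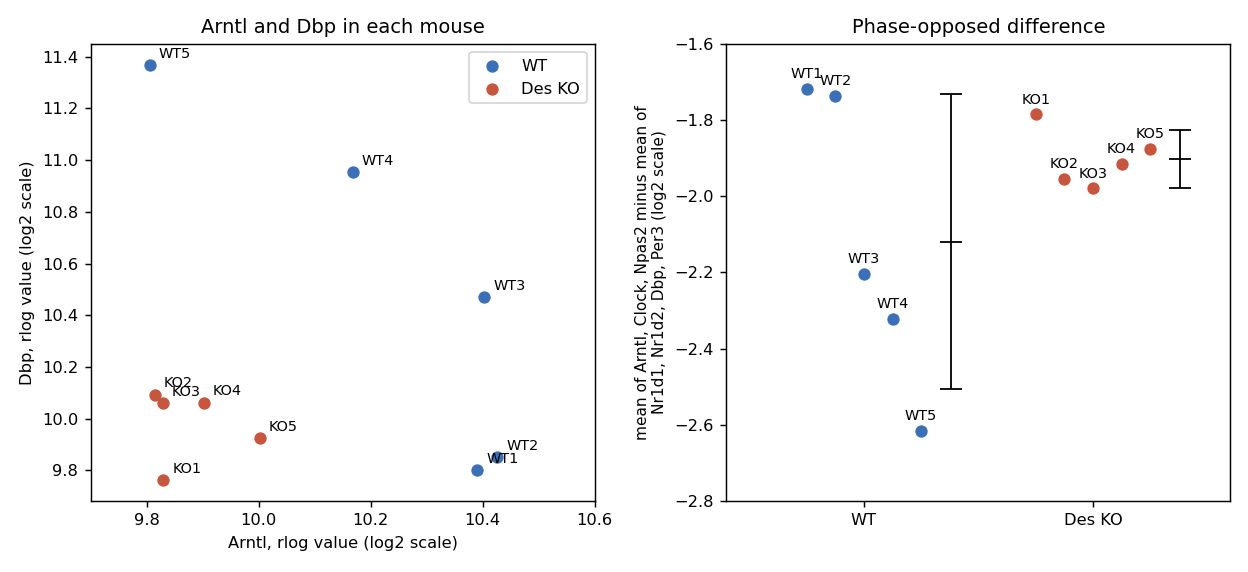
Left, rlog level of Arntl against that of Dbp (both log2 scale) for each mouse, and right, the mean of Arntl, Clock and Npas2 minus the mean of Nr1d1, Nr1d2, Dbp and Per3 for each mouse with mean and SD. Wild-type mice 1 and 2 have high Arntl with low Dbp, and wild-type mouse 5 has low Arntl with high Dbp. Wild-type mouse 3 has high Arntl (10.40) with Dbp of 10.47, and the knock-out mice lie close together at low levels of both.

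**Figure D4:**
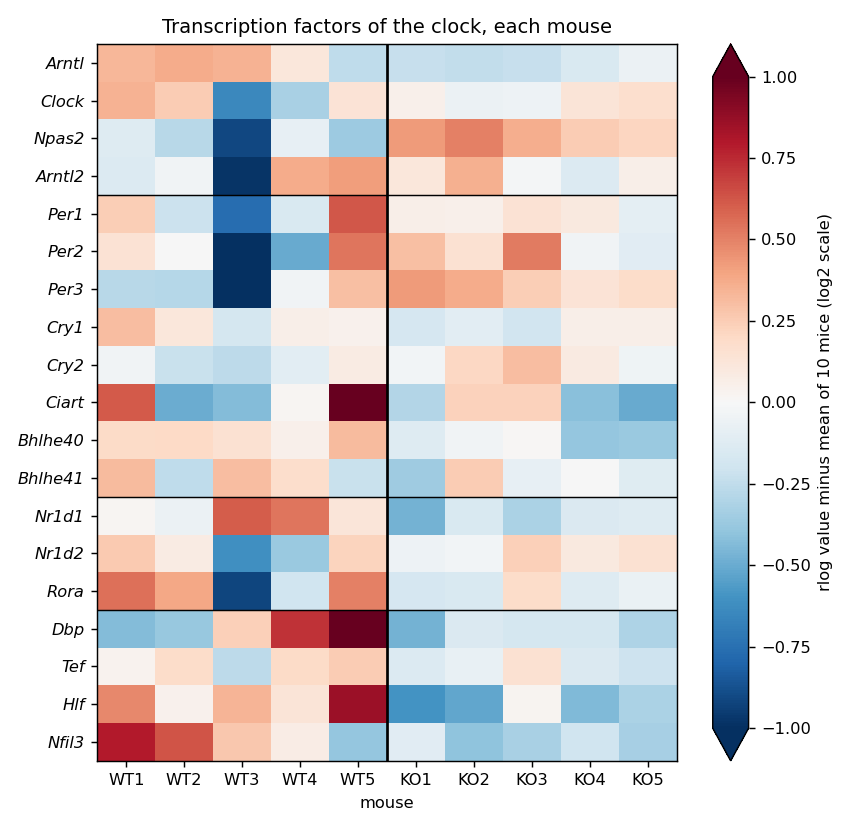
Deviation of each mouse from the mean of all 10 mice in rlog level (log2 scale) for tested genes of the clock loop. Wild-type mice differ from each other in sign for many genes, and for most genes the knock-out mice lie within a narrower range.

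The members varied more among wild-type than among knock-out mice. The SD among wild-type mice was 5.73 times that among knock-out mice for Per1, 4.96 times for Dbp, 4.18 times for Clock, 4.03 times for Per3 and 3.35 times for Arntl, whereas it was 0.926 times for Cry2. The median ratio of the members was 3.26, against 1.90 over all tested genes, of which 82.9% also had a larger SD in the wild-type mice. Without wild-type mouse 3 these medians were 2.30 and 1.37, and the ratio of Dbp was 5.72. In 8 of the 10 members the ratio lay above the median of all genes, with and without that mouse.

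**Figure D5:**
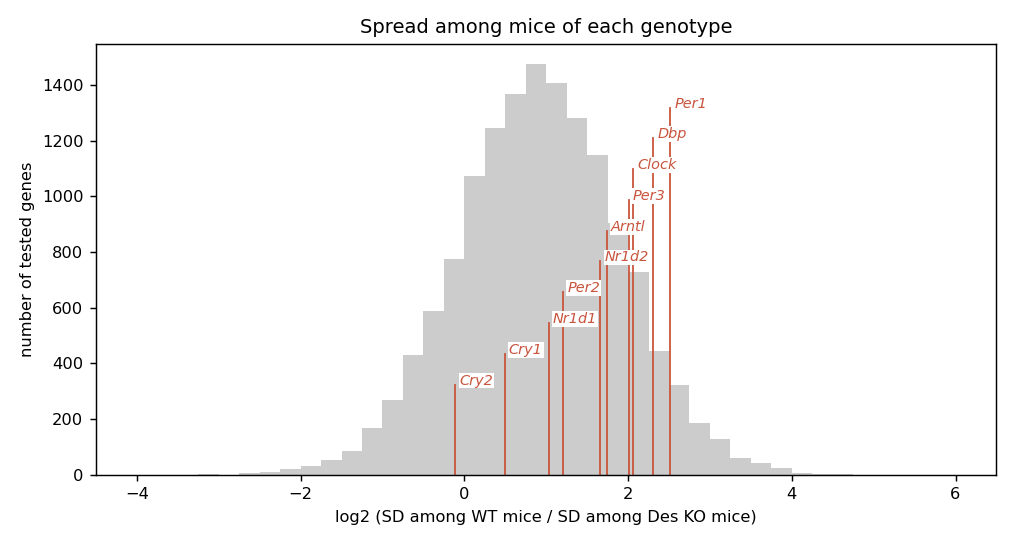
Number of tested genes (y axis) by the log2 of the SD among wild-type mice over the SD among knock-out mice (x axis), with a vertical line at the value of each member, whose height carries no value. Before the log2, the median ratio of the members is 3.26 and that of all tested genes 1.90, and only Cry2 of the members lies below 0.

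The residual SD of the fit, which pools both genotypes, exceeded that of 98.2% of the 500 genes nearest in mean level for Dbp, 96.6% for Per2 and 93.4% for Per1, against 32.4% for Cry1 and 33% for Cry2. Among the other genes of the loop it exceeded that of 99.2% for Ciart and 98.4% for Rora. The wild-type mice carried most of it, with an SD of 0.684 against 0.138 in the knock-out mice for Dbp and of 0.521 against 0.0910 for Per1.

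Of 15 tested genes for kinases, phosphatases and ubiquitin ligases that modify clock proteins, 1 was lower and none higher. Beside these counts and those of the lists below, 5.99% of all tested genes were called lower and 7.7% higher. Csnk1e, a casein kinase that phosphorylates PER proteins, lay between 10.15 and 10.30 in the knock-out mice and between 10.52 and 10.89 in the wild-type mice, and fell by 0.41 (SE 0.0892, adjusted p = 0.00795 with limma). Gsk3a, another kinase gene, differed by -0.44 without overlap and did not pass the test (SE 0.15, adjusted p = 0.0793 with limma). Wild-type mouse 3 had the highest level of Gsk3a, 12.49, and without that mouse the difference was -0.27. Of 13 coregulator genes none passed the test, the smallest adjusted p being 0.0573 with limma for Hdac3, a deacetylase that acts with the REV-ERB proteins, at a difference of -0.26 (SE 0.0846) without overlap.

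Of 15 genes with rhythmic expression in muscle or many other tissues, 2 were higher and 2 lower. Cdkn1a, a cell cycle inhibitor that REV-ERB alpha represses, rose by 1.48 (SE 0.11, adjusted p = 1.46e-06), and Pdk4, which restrains glucose oxidation, rose by 1.25 (SE 0.22, adjusted p = 0.00163), from 14.20 to 15.24 in the wild-type mice to 15.51 to 16.31 in the knock-out mice, with limma. Myod1, a muscle transcription factor, fell by 0.47 (SE 0.12, adjusted p = 0.0219) and the glycolytic regulator Pfkfb3 by 0.73 (SE 0.20, adjusted p = 0.0249) with limma. Each of these genes also responds to signals other than the clock.

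Signals that can set or shift the muscle clock were looked at through 3 lists. Of 11 genes induced by glucocorticoids, 2 were higher and 1 lower. The metallothioneins Mt2 and Mt1 rose by 1.52 (SE 0.29, adjusted p = 0.00275) and 1.12 (SE 0.23, adjusted p = 0.0056) with limma, and the kinase gene Sgk1 fell by 0.56 (SE 0.17, adjusted p = 0.0411) but was called under 8 of 19 alternatives, with adjusted p-values up to 0.108. Fkbp5, a classical glucocorticoid target, differed by -0.38 (SE 0.24, adjusted p = 0.338), and Tsc22d3 by 0.02 (SE 0.20, adjusted p = 0.957) with limma. The Tsc22d3 difference leaned on wild-type mouse 3, the lowest of its group at 12.82, and turned to -0.21 when that mouse was left out. In Fkbp5, 4 knock-out mice lay below all wild-type mice, while knock-out mouse 3, at 12.16, lay above all of them.

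Of 8 temperature-responsive genes, 1 was higher and none lower, with a median difference of -0.11 and lower means for 5. The gene called was the cold-induced Cirbp, with a rise of 0.37 (SE 0.12, adjusted p = 0.0461 with limma) that was called under 5 of 19 alternatives. Hsf1 differed by -0.46 (SE 0.18, adjusted p = 0.106) and Hsph1 by -0.26 (SE 0.11, adjusted p = 0.147) with limma. Over the mice left out, Hsf1 ranged from -0.52 to -0.26. Of 15 early genes that stimuli induce within minutes, 5 were higher and none lower, with a median difference of 0.36 and higher means for 14. Egr2 rose by 1.02 (SE 0.15, adjusted p = 0.000447), Ier2 by 0.62 (SE 0.14, adjusted p = 0.0108) and Dusp1 by 0.50 (SE 0.10, adjusted p = 0.00587) with limma, and Junb and Egr1 also rose. Over all circadian lists, 11 of 95 tested genes were higher and 7 lower, against 7.7% and 5.99% of all tested genes.

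Several cell type markers moved with the genotype, where 7.7% of all tested genes were called higher and 5.99% lower. The summed level of 7 fast fiber markers lay between 21.6 and 21.9 (log2 of the sum) in the knock-out mice and between 22.0 and 22.9 in the wild-type mice (up to 22.4 without mouse 3), and 3 of them fell. Of 8 general muscle fiber markers 1 rose and 1 fell (21.9 to 22.1 against 22.1 to 23.0, up to 22.5 without mouse 3), and of 8 slow fiber markers 2 rose and 1 fell (15.1 to 15.6 against 14.5 to 15.7, up to 15.1 without mouse 3). Endothelial markers fell in 3 of 5 cases (11.4 to 11.9 against 11.9 to 12.2) and erythroid markers in 2 of 5 (11.5 to 12.1 against 12.0 to 13.4, up to 12.3 without mouse 3), fibroblast markers rose in 3 of 6 (13.6 to 14.2 against 13.2 to 14.2), and none of the macrophage, Schwann cell and adipocyte markers was called. The 5 T cell markers lay under the expression limit. No marker was at 0 in all mice. The part of cell makeup in the differences of the clock genes was not tested, and fewer cells of a type cannot be told apart from less RNA per cell.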

How the data were processed

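The authors deposited 1 table of regularized log (rlog) values, which are log2 values made with DESeq2 from gene counts and scaled for library size. The submitters' processing notes name cutadapt 2.5, STAR 2.5.4a, Subread 1.6.1 with featureCounts, and GRCm38. Neither counts nor depth can be had from these values, so counting error is unknown and the number of mice limits the precision.

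Genotypes were taken from the labels. The expression limit was a mean rlog value of log2(10) across the 10 mice. The genes above it entered limma's lmFit and eBayes with a trended prior (limma version 3.58.1, R version 4.3.3; 2-sided). P-values were adjusted by the Benjamini-Hochberg method over 14289 genes, and an adjusted p under 0.05 was a call. Single genes were also given exact permutation tests. Symbols were matched for 54079 genes with GENCODE M21. Promoters came from RefSeq.

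The members, lists and tests were chosen with earlier results of these data known. Genes named besides the members are those of the loop, of which 1 is not reported here, the 3 of each list that had the smallest adjusted p, and up to 3 nearest neighbours of Arntl and Dbp. Pfkfb3, Junb, Egr1, Fkbp5 and Tsc22d3, and the overlapping Thra and Sphk2, were added after their values were seen. The alternatives were no expression limit or one of log2(50), quantile normalization or median centring, sample weights, a prior variance without trend, a Y-linked covariate, a replicate block, each mouse left out, and a threshold of 0.01.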

Additional observations from a re-analysis of the deposited data

Results flagged for a closer look

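Dixon's criterion for a value far from its group (critical value 0.71 for 5 mice) was applied to 44 groups, of which chance would single out about 2.2. Only genes of the loop and the phase-opposed scores were checked. It singled out 1, the level of Rora in knock-out mouse 3, which at 11.90 was the highest of its group, with the other knock-out mice between 11.55 and 11.65.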

How the results depend on the processing

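At the main settings 0 members were higher and 1 lower, 1 gene of the loop was higher and 3 lower, and 11 genes of all circadian lists were higher and 7 lower. Without a limit on expression 0 members, 1 loop gene and 3 list genes were lower. With the limit of log2(50), which excludes Npas2, 0 loop genes were higher. With quantile normalization 2 members were lower. Sample weights gave 1 member higher and 2 lower, 2 loop genes higher and 7 lower, and 27 list genes lower, with 2093 genes higher and 2127 lower overall against 1100 and 856. The Y-linked covariate gave 5 loop genes and 11 list genes lower. At 0.01, 0 members and 1 loop gene were lower, and of the list genes 7 were higher and 2 lower, with 623 genes higher and 371 lower overall. Exact permutation tests gave 1 member higher and 2 lower. Leaving out each mouse in turn gave 0 to 1 members higher and 0 to 2 lower, 1 to 2 loop genes higher and 1 to 4 lower, 10 to 11 list genes higher and 2 to 10 lower, and a phase-opposed difference of 0.0937 to 0.318. That difference was -0.062 with members only. Signs reversed for members without a call: with sample weights for Clock (-0.12), Per1 (-0.034), Per2 (-0.047) and Nr1d2 (-0.026), and for Grap (0.10). With the Y-linked covariate they reversed for Clock (-0.15), Per1 (-0.087) and Nr1d2 (-0.048), and without wild-type mouse 3 for Clock, Per1 and Arntl2, whose ranges over the mice left out were -0.055 to 0.19, -0.075 to 0.27 and -0.080 to 0.27. The cause was not tested.

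Replicate numbers did not pair the mice: deviations of same-numbered mice correlated between -0.219 and 0.0673, and 0 knock-out mice correlated best with their own number. With the replicate block 0 members were higher and 1 lower, Bhlhe40 had an adjusted p of 0.0597 and Nfil3 one of 0.0404 with limma, and 913 genes were higher and 666 lower overall.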

Other observations

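Neighbours of Arntl and Dbp were sought by their values over the 10 mice, after centring each gene, among genes of known symbol outside the lists used here. Those nearest to Arntl were Rnf114, Optn and Pgk1, at root mean square distances of 0.0856, 0.0869 and 0.10 on the log2 scale. The median over all tested genes was 0.327. This distance takes in the shift between the genotypes, so genes near Arntl had to differ in the same direction as Arntl. Their differences between the genotypes, -0.34 for Rnf114, -0.43 for Optn and -0.51 for Pgk1, a glycolytic enzyme, are therefore no separate result. For Dbp the nearest were BC049352, Grap and Gm15491, at 0.235, 0.251 and 0.262, where the median was 0.55. The nearest gene of the loop was Nfil3 for Arntl, at 0.208 with 978 genes nearer, and Nr1d1 for Dbp, at 0.394 with 244 genes nearer. Both counts are over all tested genes and include Arntl or Dbp itself.

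Some early genes separated the wild-type mice from one another, as was noticed after their values were seen. Egr1, an early transcription factor, had levels of 10.15, 9.05, 7.21, 7.41 and 7.49 in wild-type mice 1 to 5 and of 9.83, 10.53, 10.37, 9.84 and 10.14 in the knock-out mice. Fos had levels of 9.99, 9.68, 8.10, 7.86 and 7.98 in the wild-type mice and of 9.27, 10.05, 9.48, 8.83 and 9.23 in the knock-out mice. In both genes wild-type mice 1 and 2, the mice with high Arntl and low Dbp, had the highest levels of their group. Wild-type mouse 3, with Arntl as high (10.40) and Dbp at 10.47, had Egr1 at 7.21 and Fos at 8.10. Egr1 and Fos were picked from 15 early genes, the others of which are not given by mouse, and a link with the clock genes was not tested.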
